A study of Mus musculus with 12 samples.

Results

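The 8 genes described here handle iron in the cell: Trf, Tfrc, Fth1, Ftl1, Slc11a2, Slc40a1, Ireb2 and Aco1. They were followed through genome-wide maps of H4K8ac, the acetylation of lysine 8 on the tail of histone H4, obtained by ChIP-seq (sequencing of DNA recovered with an antibody to the mark) in mouse oligodendrocyte progenitors (OPCs). The members were chosen by name, as every peak that the deposited annotation assigned to 1 of these 8 genes, of 23433 genes named in all. That gave 133 of 269580 peaks. The cells came from the forebrain of Pdgfrα-H2BEGFP mice, in which the Pdgfra locus, active in OPCs, drives a green fluorescent protein fused to a histone, and were isolated by sorting. All groups carried this allele. There were 3 neonatal libraries (postnatal day 5) and 3 adult libraries (postnatal day 60), titled as biological replicates, each with a peak list of its own, so peaks were called per library. The number of animals behind a library and the gate used in the sort are not given in the sources used here, and the 6 input libraries were not analysed here.

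Iron circulates bound to transferrin and enters a cell when the loaded protein is taken up by its receptor. Inside the cell it is carried out of the endosome, used in enzymes, stored in ferritin or exported, and the iron regulatory proteins adjust this balance by binding messages for the receptor, for ferritin and for the transporters. Oligodendrocytes are the most iron-rich cells of the brain, since making myelin draws on iron-dependent enzymes, and they are known as a source of brain transferrin. H4K8ac marks active promoters and enhancers.

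The lists differ in length, and every count below has to be read beside that. The neonatal lists held between 7353 and 31189 peaks and the adult lists between 72278 and 77002, neonatal 2 being the longest neonatal list. The lists hold no read numbers, so the depth behind a peak is unknown. The background level per library, recovered from the steps between fold values, lay between 2.64 and 2.96 in the neonatal and between 1.77 and 3.53 in the adult libraries. Genes that define OPCs were marked at both ages, with a promoter peak at 7 or 8 of 8 marker genes in every library. Markers of myelinating oligodendrocytes had a promoter peak at 2, 3 and 1 of 8 genes in neonatal 1, 2 and 3, and at 8 of 8 in each adult library. In bulk chromatin, more cells carrying the mark and more of the mark per cell cannot be told apart.

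All 8 iron handling genes had a promoter peak in every adult library, a promoter peak being one within 3000 bp of a transcription start. Of all 18548 genes with a promoter peak in any library, 73.1% did so. In the neonatal libraries the promoters were marked less evenly: 3, 8 and 1 of the 8 genes had a promoter peak in neonatal 1, 2 and 3. The corresponding shares of all 18548 genes were 34.4%, 73.9% and 30.3%. None of the 8 genes had a promoter peak in all 3 neonatal libraries, against 22.8% of genes. None had one in each adult but no neonatal library, against 12.1% of genes, because neonatal 2 marked every one of them. The promoters of Ftl1, Slc11a2, Slc40a1 and Aco1 were marked at the neonatal age in neonatal 2 only, 4 of 8 genes against 34.2% of genes. Those of Tfrc, Fth1 and Ireb2 were marked in neonatal 1 and 2, and that of Trf in neonatal 2 and 3. The Fth1 peak of neonatal 1 was near the end of its list, at rank 8922 of 9097 by fold.

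The genes divided by how far the mark spread in adult cells. Trf, Fth1 and Slc11a2 had many peaks around and upstream of the gene, and Tfrc, Ftl1, Slc40a1, Ireb2 and Aco1 had 1 or 2 peaks at the promoter. The length covered by all peaks assigned to a gene was therefore compared, as log2(bp + 100). The adult values were all above the neonatal values for 6 of the 8 genes, every one but Tfrc and Slc40a1. The same held for 60% of all 23433 genes. The median difference in log2 covered length, adult minus neonatal, was 3.25 over the 8 genes and 1.94 over all genes. With 3 libraries against 3 the smallest exact two-sided permutation p is 0.1, so no gene could pass 0.05.

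**Figure D1:**
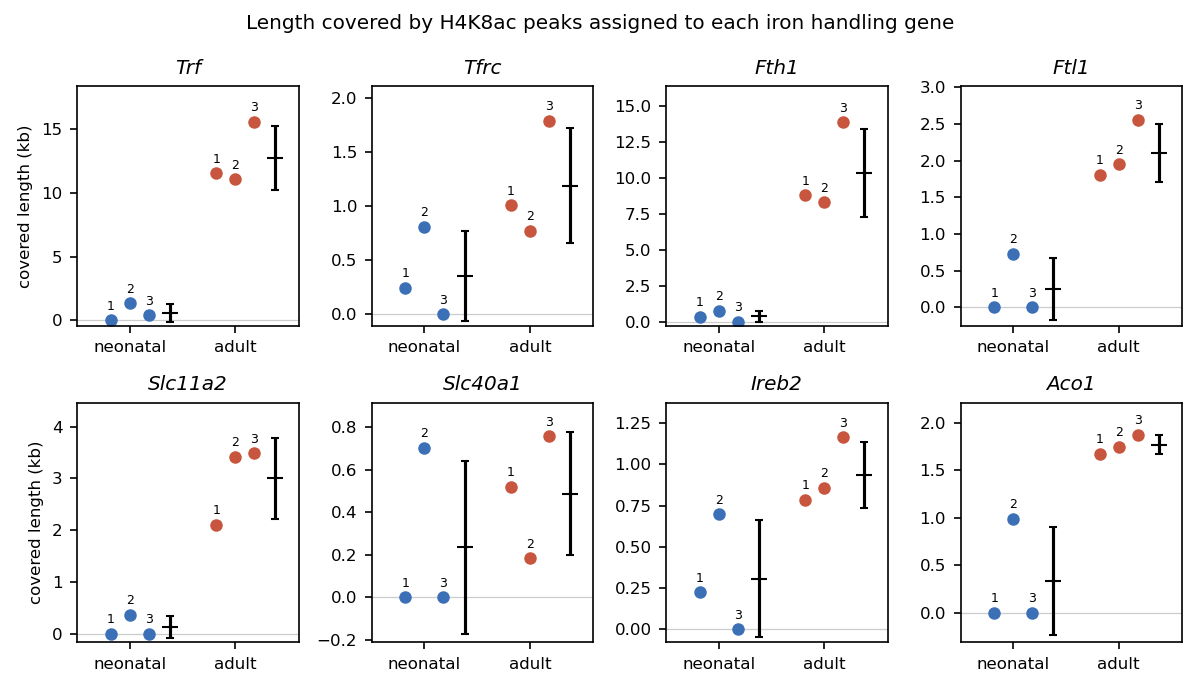
Length in kb covered by H4K8ac peaks assigned to each iron handling gene, with a point for each numbered library and the mean with SD (n = 3) beside each age; each panel has its own vertical scale. Trf and Fth1 reach 8.33 kb or more in every adult library, while the ages overlap for Tfrc and Slc40a1.

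Trf encodes transferrin, the iron carrier (ENSMUSG00000032554.15, chromosome 9, 103208876 to 103230286 in GRCm38.p6, minus strand). Its peaks covered 0, 1.34 and 0.375 kb in neonatal 1, 2 and 3 and 11.5, 11.1 and 15.6 kb in adult 1, 2 and 3. The ages did not overlap, and the lowest adult library was several times above the highest neonatal one. The means were 0.573 ± 0.694 kb (SD, n = 3) and 12.7 ± 2.48 kb (SD, n = 3), a difference of 4.95 on the log2(bp + 100) scale (exact permutation p = 0.1, Benjamini-Hochberg adjusted p = 0.166 over all genes). In adult 1, 2 and 3 Trf had more covered length than 97.5%, 96.9% and 97.1% of all genes. It also stood above 89.6% and 90.5% of all genes in neonatal 2 and 3, and had no peak in neonatal 1.

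The promoter and its surroundings made up most of this length, as several peaks within chr9:103227631-103237285 that covered 8944, 8761 and 9207 bp in adult 1, 2 and 3. The widest Trf peak measured 5.72, 5.07 and 5.54 kb in adult 1, 2 and 3 and began just upstream of the start at 103230444. By width it ranked 111 of 72278, 261 of 72661 and 654 of 77002 peaks in its list. The neonatal peaks at the same place were shorter than the adult ones. Neonatal 2 had a promoter peak of 1017 bp, which by width ranked 2032 of 31189 in its list and so was wide for that list. Neonatal 3 had peaks of 151 and 224 bp, whereas neonatal 1 had none. Merging overlapping peaks of all libraries gave 11 Trf regions, of which 1, the region around the promoter, was present at both ages and 10 were present only in adult lists. Of the latter, 4 were in all 3 adult libraries. Further upstream, peaks lay as far as -13060 bp, in intergenic sequence whose nearest other coding gene was 1300017J02Rik. The region chr9:103240157-103241795 was covered for 1155, 1401 and 1557 bp in adult 1, 2 and 3 and not in any neonatal library.

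Tfrc encodes the transferrin receptor, which takes loaded transferrin into the cell (ENSMUSG00000022797.16, chromosome 16, 32608896 to 32632794, plus strand). It had only 1 region, at the promoter, chr16:32608069-32609853, intergenic or intronic peaks being assigned to it in no library. Peaks covered 0.245, 0.809 and 0 kb in neonatal 1, 2 and 3 and 1.01, 0.771 and 1.79 kb in adult 1, 2 and 3. The ages overlapped, since neonatal 2 lay above adult 2. The difference was 1.95 on the log2(bp + 100) scale, close to the median of 1.94 over all genes (exact permutation p = 0.2, adjusted p = 0.305 over all genes). The sequence under this peak is printed because the peak filled it completely in each adult library: 250 of 250 bases before the first of 2 RefSeq starts were covered in adult 1, 2 and 3, 204 bases in neonatal 2 and 0 in neonatal 1 and 3. The window before the second start, which is not printed, was covered for 70, 92 and 0 bases in neonatal 1, 2 and 3 and for 250 in each adult library. The printed window is chr16:32608646-32608895, plus strand, from RefSeq's GRCm38.p6 table, and capitals mark a CCAAT box.
Tfrc: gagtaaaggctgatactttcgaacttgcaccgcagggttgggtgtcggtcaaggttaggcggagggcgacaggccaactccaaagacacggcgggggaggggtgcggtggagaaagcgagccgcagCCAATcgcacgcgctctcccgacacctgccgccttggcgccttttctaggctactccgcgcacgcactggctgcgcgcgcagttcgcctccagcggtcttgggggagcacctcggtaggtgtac

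The motifs marked in capitals in the promoter sequences here and below were searched on both strands in the 250 bases before each start, and the motifs were picked after the sequences had been seen. They are the GC box (GGGCGG, present in 32.7% of 32851 such windows in the RefSeq table), the CCAAT box (CCAAT, 33.8%), the TATA box (TATAA, 22.8%), the core of the antioxidant response element (TGACNNNGC, 10.2%) and the E-box (CACGTG, 6.02%). None of the printed windows held the latter pair. A match is only a match of letters. A RefSeq window was matched for 5 of the 8 genes, and Trf, Slc11a2 and Slc40a1 are given by name and position only.

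Fth1 encodes the ferritin heavy chain, the subunit that oxidises iron for storage (ENSMUSG00000024661.7, chromosome 19, 9980600 to 9985111, plus strand). Peaks covered 0.333, 0.772 and 0 kb in neonatal 1, 2 and 3 and 8.82, 8.33 and 13.9 kb in adult 1, 2 and 3. As for Trf, the ages did not overlap and the gap between them was wide. The means were 0.368 ± 0.387 kb (SD, n = 3) and 10.3 ± 3.08 kb (SD, n = 3), a difference of 4.92 on the log2(bp + 100) scale (exact permutation p = 0.1, adjusted p = 0.166 over all genes). Fth1 had 1, 2 and 0 peaks in the neonatal libraries and 16, 13 and 14 in the adult libraries, the highest numbers among the 8 genes.

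RefSeq gives 2 starts for Fth1, and the mark differed between them. The 250 bases before each start are printed to show how unlike they are in base composition. Before the upstream start the window has a GC content of 34.8% and a single TATA box match, and before the downstream start it has 66.8% with 3 GC boxes and a CCAAT box (capitals mark these matches). The windows are chr19:9980350-9980599 and chr19:9982396-9982645, both on the plus strand in RefSeq's GRCm38.p6 table.
Fth1 upstream start: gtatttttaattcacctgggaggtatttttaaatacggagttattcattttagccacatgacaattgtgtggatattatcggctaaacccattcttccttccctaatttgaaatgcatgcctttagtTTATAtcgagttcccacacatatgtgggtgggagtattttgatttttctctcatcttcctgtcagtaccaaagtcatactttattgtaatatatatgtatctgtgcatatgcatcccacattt
Fth1 downstream start: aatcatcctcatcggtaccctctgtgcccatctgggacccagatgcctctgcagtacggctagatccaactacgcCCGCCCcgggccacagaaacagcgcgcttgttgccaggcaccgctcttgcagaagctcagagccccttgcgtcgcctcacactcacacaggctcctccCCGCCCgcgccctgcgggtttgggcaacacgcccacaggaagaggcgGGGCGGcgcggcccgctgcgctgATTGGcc

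Of the window before the upstream start, 167, 0 and 250 bases were covered in adult 1, 2 and 3 and 0 in every neonatal library. Of the window before the downstream start, 117, 61 and 118 bases were covered in the adult libraries and 50, 21 and 0 in neonatal 1, 2 and 3. Peaks at the downstream start lay mainly past the start, in chr19:9982731-9984548, where neonatal 2 was covered for 396 bp and adult 1, 2 and 3 for 1632, 1738 and 1654 bp. Neonatal marking of Fth1 was thus limited to the neighbourhood of the downstream start, in neonatal 1 and 2.

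In the adult libraries Fth1 peaks also formed a cluster between -18513 and -12948 bp of the upstream start. Within it 3 regions were marked in every adult and in no neonatal library: chr19:9964199-9965253, chr19:9965333-9966803 and chr19:9966994-9967650. The middle region was covered for 1294, 1237 and 1315 bp in adult 1, 2 and 3, with folds over background of 6.66, 8.23 and 7.96. These folds, like all folds of peaks given here, are the authors' own values and describe a peak within its list. Of 18 Fth1 regions, 16 were present only in adult lists and 4 of those in all 3 adult libraries. The regions beyond the gene's 3′ end overlap Best1, a neighbouring chloride channel gene, although the annotation assigns them to Fth1.

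Ftl1 encodes the ferritin light chain, which helps iron mineralise inside the ferritin shell (ENSMUSG00000050708.16, chromosome 7, 45457944 to 45459886, minus strand). Its peaks covered 0, 0.732 and 0 kb in neonatal 1, 2 and 3 and 1.81, 1.95 and 2.56 kb in adult 1, 2 and 3. The ages did not overlap, and neonatal 2 alone had peaks at the younger age. The difference was 3.43 on the log2(bp + 100) scale (exact permutation p = 0.1, adjusted p = 0.166 over all genes). Unlike Fth1, Ftl1 had no peak outside its promoter in any library. It had the same 2 regions in neonatal 2 and in each adult library, chr7:45458933-45459651 over the gene and chr7:45460004-45461937 upstream of it, with a gap at the start between them. The upstream region held the longer and stronger peaks. Its far end overlaps Bax, a neighbouring gene of cell death, and only the adult 3 peak reached that far. The window before the start, chr7:45459887-45460136 on the minus strand, is printed because the gap falls in its end near the start. It was covered for 133, 106 and 109 of 250 bases in adult 1, 2 and 3 and for 86 bases in neonatal 2. Capitals mark a GC box and 2 CCAAT boxes, all matched on the opposite strand.
Ftl1: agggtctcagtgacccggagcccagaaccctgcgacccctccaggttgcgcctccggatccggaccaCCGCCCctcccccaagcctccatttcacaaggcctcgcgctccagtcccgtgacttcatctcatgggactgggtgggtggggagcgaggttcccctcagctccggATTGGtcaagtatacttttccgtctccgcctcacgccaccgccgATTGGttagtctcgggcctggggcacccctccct

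Ferritin genes have processed copies elsewhere in the genome, and how reads that fit several places were treated is not given in the sources used here. Values for Fth1 and Ftl1 within the transcribed sequence are uncertain to that extent.

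Slc11a2 encodes DMT1, the transporter that moves iron out of the endosome and across membranes (ENSMUSG00000023030.16, chromosome 15, 100387898 to 100424209, minus strand). Peaks covered 0, 0.364 and 0 kb in neonatal 1, 2 and 3 and 2.10, 3.42 and 3.50 kb in adult 1, 2 and 3. The ages did not overlap. The difference was 4.18 on the log2(bp + 100) scale (exact permutation p = 0.1, adjusted p = 0.166 over all genes). With peaks assigned by position, within 3000 bp of a gene, the difference was 2.79, against a median of 1.80 over all genes. Its promoter peak, in chr15:100422319-100422999, measured 364 bp in neonatal 2 and 537, 524 and 671 bp in the adult libraries. The remaining adult length lay upstream in intergenic sequence that no neonatal library marked. Of 4 such regions 2 were marked in all adult libraries: chr15:100429886-100431963, covered for 1169, 1663 and 1817 bp in adult 1, 2 and 3, and chr15:100432185-100432885, covered for 398, 500 and 660 bp. The nearest other coding gene to both was Letmd1, 30458 and 29536 bp away.

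Slc40a1 encodes ferroportin, the exporter of iron from cells (ENSMUSG00000025993.10, chromosome 1, 45908070 to 45926532, minus strand). It had the least covered length of the 8 genes in each adult library. Peaks covered 0, 0.705 and 0 kb in neonatal 1, 2 and 3 and 0.521, 0.184 and 0.76 kb in adult 1, 2 and 3. The ages overlapped, because neonatal 2 was above adult 1 and adult 2 (difference 1.41 on the log2(bp + 100) scale, exact permutation p = 0.3, adjusted p = 0.44 over all genes). Its strongest promoter peak ranked 13518 of 31189 by fold in neonatal 2. In adult 1, 2 and 3 it ranked 47000 of 72278, 69006 of 72661 and 76990 of 77002, near the end of the list in adult 2 and 3. Ranks in lists of different length are given as position within each list only.

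Ireb2 encodes IRP2, an iron regulatory protein that is degraded when iron is plentiful (ENSMUSG00000032293.8, chromosome 9, 54862658 to 54912534, plus strand). Peaks covered 0.225, 0.698 and 0 kb in neonatal 1, 2 and 3 and 0.786, 0.858 and 1.17 kb in adult 1, 2 and 3. The ages did not overlap, but neonatal 2 lay just below adult 1. The difference was 1.79 on the log2(bp + 100) scale, below the median of all genes (exact permutation p = 0.1, adjusted p = 0.166 over all genes). The strongest promoter peak of each library is described here. Its fold over background was 3.94 in neonatal 1, where it ranked 7042 of 9097 peaks, 11.1 in neonatal 2, where it ranked 1472 of 31189, and 17.4, 10.2 and 13.0 in adult 1, 2 and 3, where it ranked 2199 of 72278, 5566 of 72661 and 3131 of 77002. Neonatal 3 had none. Its only region was chr9:54863169-54864410. The window before the RefSeq start is chr9:54863505-54863754 on the plus strand. It is printed because it fell largely in the gap between 2 promoter peaks in adult 1, adult 2 and neonatal 2. Of its 250 bases, 0, 37 and 250 were covered in adult 1, 2 and 3 and 0, 32 and 0 in neonatal 1, 2 and 3. Capitals mark 2 GC boxes on the opposite strand.
Ireb2: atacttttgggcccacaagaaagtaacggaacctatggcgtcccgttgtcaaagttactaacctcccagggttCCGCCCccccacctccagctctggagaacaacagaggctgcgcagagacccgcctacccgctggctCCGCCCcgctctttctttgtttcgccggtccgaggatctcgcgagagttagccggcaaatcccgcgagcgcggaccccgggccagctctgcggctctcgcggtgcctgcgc

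Aco1 encodes IRP1, the cytosolic aconitase that turns into an iron regulatory protein when it loses its iron-sulphur cluster (ENSMUSG00000028405.9, chromosome 4, 40143265 to 40199009, plus strand). Peaks covered 0, 0.987 and 0 kb in neonatal 1, 2 and 3 and 1.68, 1.75 and 1.88 kb in adult 1, 2 and 3. The ages did not overlap, and the adult libraries were close together (1.77 ± 0.101 kb, SD, n = 3). The difference was 3.07 on the log2(bp + 100) scale (exact permutation p = 0.1, adjusted p = 0.166 over all genes). At the promoter, chr4:40142324-40144082, neonatal 2 had 3 separate peaks of 299, 213 and 475 bp, and each adult library had 1 unbroken peak of 1675, 1749 and 1711 bp. The window before the RefSeq start, chr4:40143015-40143264 on the plus strand, is printed because the adult peaks ran across it: 250 of 250 bases were covered in adult 1, 2 and 3, 198 in neonatal 2 and 0 in neonatal 1 and 3. Capitals mark 3 GC boxes.
Aco1: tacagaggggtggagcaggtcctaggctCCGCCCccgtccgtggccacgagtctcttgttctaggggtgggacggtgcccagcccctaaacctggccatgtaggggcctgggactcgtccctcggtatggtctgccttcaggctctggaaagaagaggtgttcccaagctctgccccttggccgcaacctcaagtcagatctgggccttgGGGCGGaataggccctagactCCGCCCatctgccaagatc

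Counted as peaks instead of length, only Trf, Fth1 and Slc11a2 had more peaks in every adult library than in every neonatal one, 3 of 8 genes against 35.3% of all genes. With peaks within 1000 bp merged, this held for Fth1 and Slc11a2 only. For Trf the mean difference fell from 8.67 to 2 peaks (exact permutation p = 0.3 after merging). The share of all genes was not counted after merging. As deposited, Trf had 0, 2 and 2 peaks in neonatal 1, 2 and 3 and 11, 8 and 11 in adult 1, 2 and 3, and Slc11a2 had 0, 1 and 0 and then 5, 8 and 5 (exact permutation p = 0.1 and adjusted p = 0.281 over all genes for each of the 3 genes). The other genes kept 1 or 2 peaks in adult libraries. For Aco1 neonatal 2 had 3 peaks, more than any adult library.

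The same 3 genes were those with peaks outside promoters in all adult libraries, 3 of the 4 members that had such a peak in any library (the remaining one, Aco1, had a single intronic peak in adult 3). Of all 12759 genes with such a peak in any library, 57.8% had one in each adult library. Fth1 and Slc11a2 had such peaks in all adult and no neonatal lists, 2 of 4 members against 33.2% of genes. Across the 8 genes, 31 of 41 merged regions were found only in adult lists, 10 at both ages and 0 only in neonatal lists. Merged in the same way for every gene, 73.3% of 100779 regions were found only in adult lists, near the share for these genes.

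**Figure D2:**
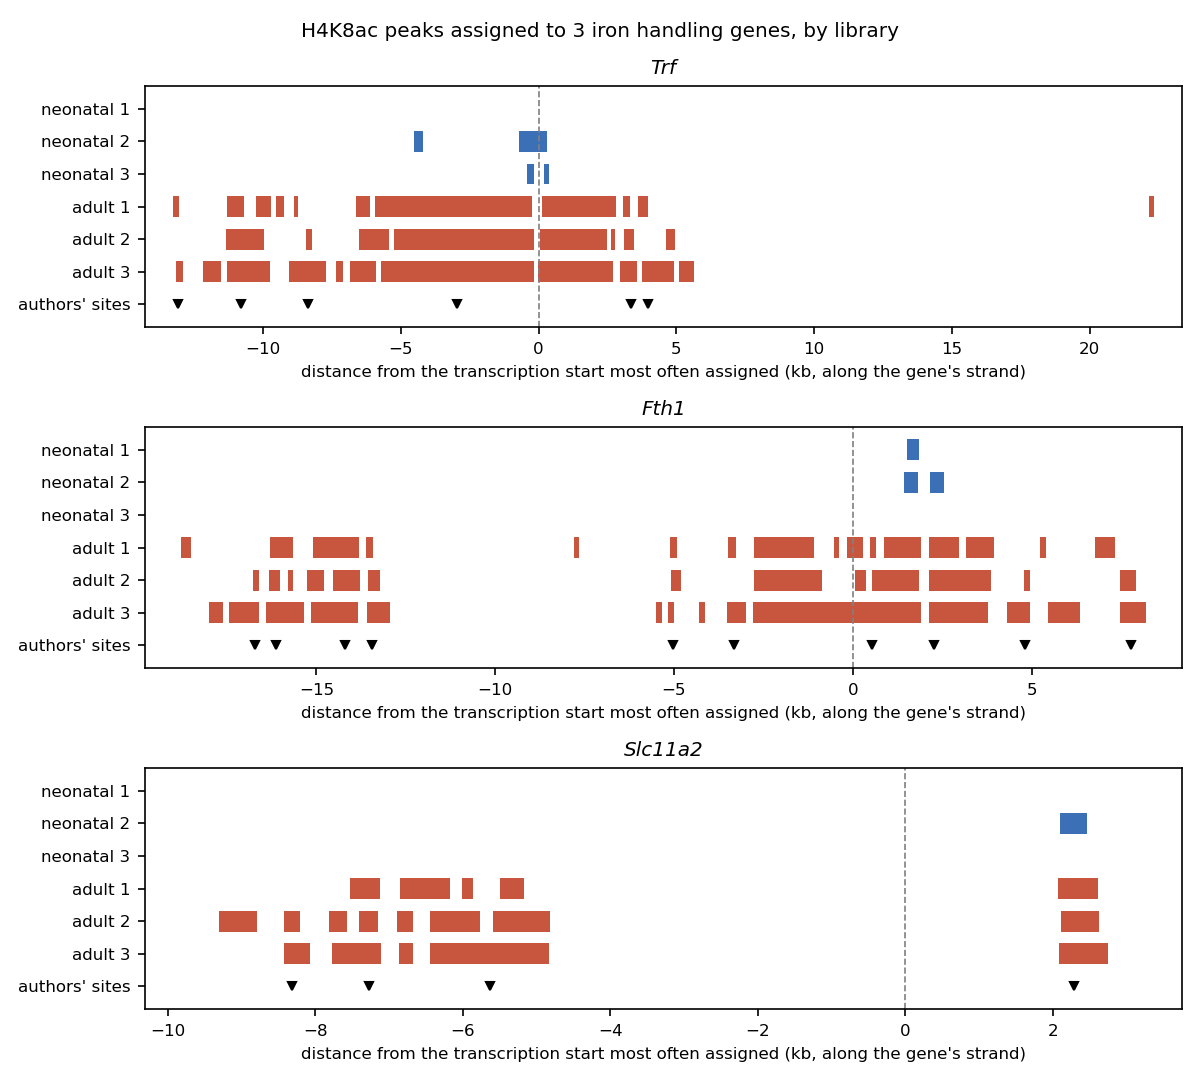
Position of each peak assigned to Trf, Fth1 and Slc11a2 in the 6 libraries, as distance in kb along the gene's strand from the transcription start most often assigned, with triangles at the centres of the sites in the authors' deposited table. Neonatal peaks lie at the promoters, apart from 1 peak of neonatal 2 upstream of Trf, and adult peaks extend upstream of all 3 genes.

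The difference in list length was reduced in 2 ways, neither of which removes it fully. Scaling leaves a gene without a peak at 0, and equal numbers of peaks do not make peak widths equal. When covered lengths were scaled to a common total per library, adult and neonatal values were still apart for Trf, Fth1 and Slc11a2, 3 of 8 genes against 25.2% of all genes. Scaled lengths of Trf were 0, 2.71 and 4.45 kb in neonatal 1, 2 and 3 and 7.63, 6.94 and 7.08 kb in adult 1, 2 and 3. Those of Fth1 were 3.10, 1.56 and 0 kb and then 5.83, 5.21 and 6.31 kb. Scaling moved the median difference of all genes from 1.94 to 0.64, and it turned the sign for Tfrc and Ireb2: scaled lengths of Ireb2 were 2.09, 1.41 and 0 kb in the neonatal and 0.520, 0.537 and 0.529 kb in the adult libraries.

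When only the 7353 strongest peaks of each library by fold were kept, Trf and Ireb2 had all adult libraries above all neonatal ones, 2 of the 7 members still marked against 27.3% of the 11313 genes still marked. Trf was covered for 0, 0 and 0.375 kb in neonatal 1, 2 and 3 and 8.40, 7.48 and 8.26 kb in adult 1, 2 and 3. Fth1 was then covered in adult 1 and adult 3 only, for 0.847 and 6.38 kb. Slc40a1 had no peak left in any library. Promoter peaks remained at 2, 4 and 1 of the 8 genes in the neonatal and at 5, 5 and 4 in the adult libraries, while the share of all genes with one lay between 29.6% and 33.6% in the neonatal and between 27.4% and 32.1% in the adult libraries. Trf was the only one of the 8 genes whose adult libraries all lay above its neonatal libraries by covered length as deposited, scaled and at equal list length. The share of all genes that met these 3 conditions together was not counted, so this does not set Trf apart from genes in general.

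**Figure D3:**
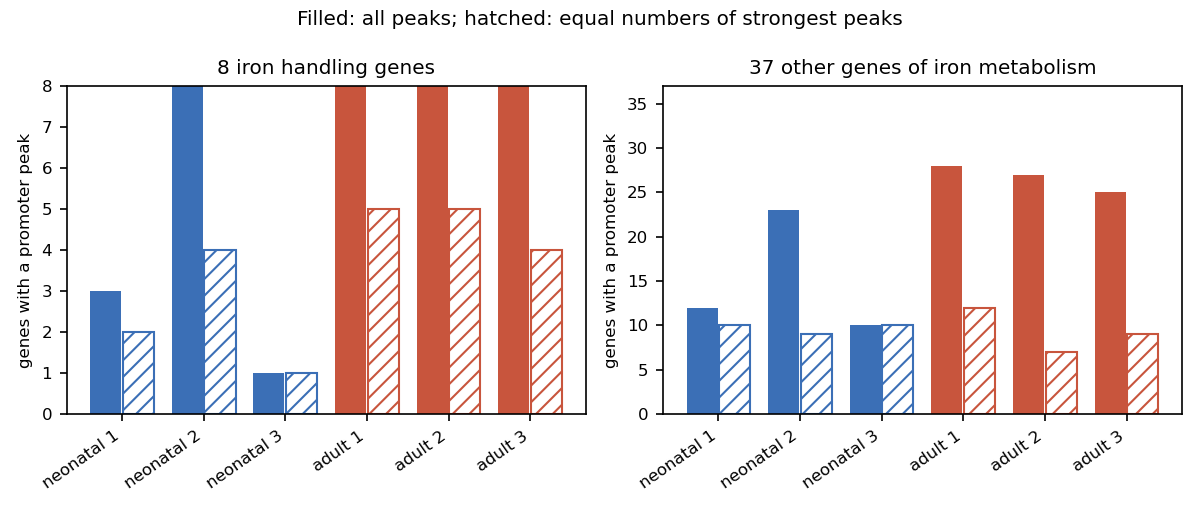
Number of genes with a promoter peak in each library, for the 8 iron handling genes (left) and 37 other genes of iron metabolism (right), with all peaks (filled bars) and with the 7353 strongest peaks of each library (hatched bars). All 8 genes are marked in neonatal 2 and in each adult library, and at equal list length the 37 other genes have 9 or 10 marked in the neonatal and 7 to 12 in the adult libraries.

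The authors' deposited table of differential sites compares the ages, and its log2 values were read here as adult over neonatal because its positive sites overlapped mostly adult peaks. The 8 genes had 24 sites in the authors' deposited table, all of them higher in adult cells. At promoters, 7 of 8 genes had such a site, all but Slc40a1. Of the 18548 genes with a promoter peak in any library, 64.5% had such a site in the authors' deposited table. Outside promoters, 3 of the 4 genes with such peaks did, again Trf, Fth1 and Slc11a2, against 56.6% of the 12759 genes with such peaks, by the authors' deposited table. None of the 8 genes had a site lower in adult cells in the authors' deposited table, where 0.977% of the 23433 genes did. The authors' deposited table leans to one side, since 43634 of 43888 listed sites were positive.

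In the authors' deposited table the median log2 value was 2.48 for the 12 promoter sites of the 8 genes and 1.86 for all 19524 listed promoter sites, but 7 of those 12 belonged to Trf and Fth1. With 1 promoter site per gene, that of smallest p, the medians in the authors' deposited table were 1.87 for 7 of the 8 genes and 1.77 for all 12082 genes with such a site. For sites outside promoters the authors' deposited table gave medians of 3.12 for 12 sites of these genes and 2.85 for 24356 in all. Taking for each gene its promoter site of smallest p, the authors' deposited table had Trf highest at 4.21 (adjusted p = 5.51e-13) and Fth1 next at 3.81 (adjusted p = 2.77e-06). Slc11a2 followed at 2.30 (adjusted p = 0.00173) and Tfrc at 1.87 (adjusted p = 0.0016), both again from the authors' deposited table. At the lower end, the authors' deposited table had Ftl1 at 1.67 (adjusted p = 0.00468), Aco1 at 1.32 (adjusted p = 0.00857) and Ireb2 at 1.31 (adjusted p = 0.018). Among all promoter sites of the authors' deposited table, the Trf site stood above 92.5% and the Ireb2 and Aco1 sites above 15.6% and 16.2%. The order of the genes in the authors' deposited table has no error per library, so neighbours in it were not tested against each other.

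Within Fth1 the sites of the authors' deposited table ranged from 1.69 to 5.81. The lowest in the authors' deposited table was the site past the downstream start, chr19:9982656-9983055 (adjusted p = 0.0238), where neonatal 2 also had a peak. The highest in the authors' deposited table was chr19:9975364-9975763, 5.03 kb upstream of the upstream start (adjusted p = 1.64e-06), where no neonatal library had a peak. The peaks there in adult 1, 2 and 3 were short, at 176, 263 and 173 bp. By fold they ranked only 35088 of 72278, 52625 of 72661 and 50036 of 77002. The 4 sites in the distal cluster lay between 2.76 and 3.78 in the authors' deposited table. An intronic site at chr19:9988181-9988580, in Best1 by position, reached 5.26 in the authors' deposited table, although adult 1 had no peak there.

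The strongest Trf site of the authors' deposited table, chr9:103233200-103233599, lies 2.96 kb upstream of the start, inside the widest adult peak, and was covered by a peak over all 400 bp in each adult library and in no neonatal library. The 6 Trf sites spanned 2.20 to 4.21 in the authors' deposited table. Among the sites assigned to Slc11a2, the authors' deposited table gave the promoter the lowest value, 2.30. The intergenic sites 5.63, 7.27 and 8.32 kb upstream had 3.79, 3.43 and 2.43. Another promoter-class site within Slc11a2 by position, chr15:100423216-100423615, was assigned to the gene Gm5475. It had 3.00 in the authors' deposited table (adjusted p = 0.00077), above the lowest intergenic site, so the order depends on the annotation. In Fth1, Slc11a2 and Trf the highest values of the authors' deposited table were therefore away from the start that neonatal 2 marked. The highest Trf site is of the promoter class, but it lies 2.96 kb upstream of the start and outside the neonatal 2 promoter peak.

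**Figure D4:**
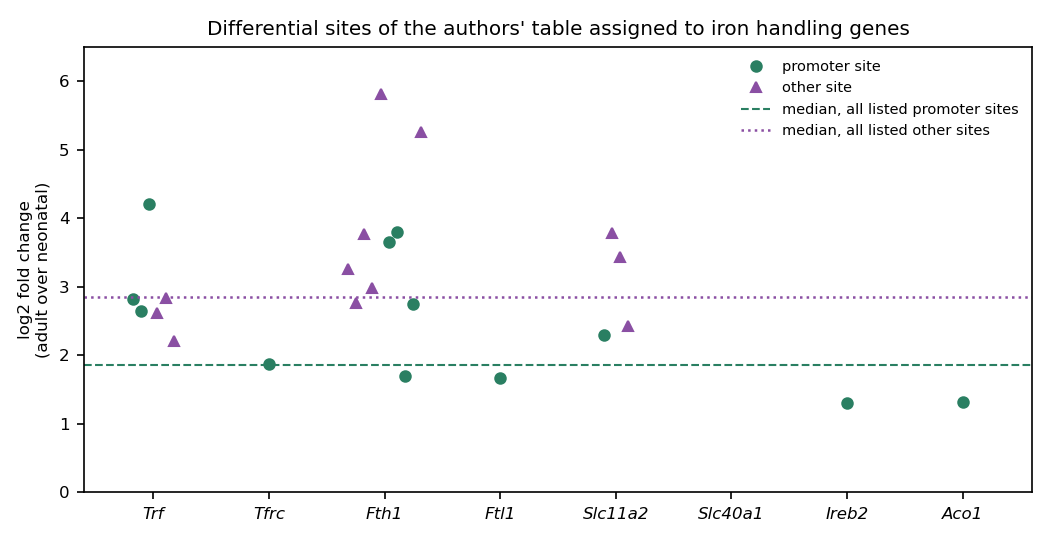
Log2 fold change, adult over neonatal, of each site in the authors' deposited table assigned to the 8 genes (circles, promoter sites; triangles, other sites; ordered by position within a gene), with the medians of all listed promoter sites (1.86, dashed) and of all other sites (2.85, dotted). All 24 sites are above 0, Trf and Fth1 promoter sites reach 4.21 and 3.81, and Slc40a1 has no site.

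Trf and ferritin are also abundant in mature oligodendrocytes, so the marker genes of that cell type were measured beside them. Peaks over the 8 markers of myelinating oligodendrocytes covered 2.19, 8.46 and 0.435 kb in neonatal 1, 2 and 3 and 112, 109 and 138 kb in adult 1, 2 and 3. The 8 OPC markers covered 9.73, 34.7 and 5.11 kb and then 59.3, 64.1 and 87.1 kb. Among the 7353 strongest peaks, promoter peaks stood at 2, 1 and 1 of the 8 myelinating markers in the neonatal and at 6, 7 and 7 in the adult libraries, and at 8, 6 and 7 OPC markers in the neonatal and 3, 3 and 4 in the adult libraries. The part of these cells or of this state in the Trf, Fth1 and Slc11a2 values was not tested. Markers of microglia, the other iron-rich glia, had a promoter peak at 0 of 8 genes in each neonatal and 1 of 8 in each adult library, Cx3cr1 being the only one with any peak. Astrocyte markers had a promoter peak at 2, 6 and 1 of 8 genes in neonatal 1, 2 and 3 and at 5, 4 and 6 in adult 1, 2 and 3. Endothelial markers, from cells that also handle transferrin, had one at 0, 1 and 0 and then 2, 2 and 2 of 8 genes. Fibroblast markers, given because Pdgfra is also active in fibroblasts, had one at 0, 3 and 0 and then 1, 2 and 1 of 6 genes. Neuron markers had one at 0, 5 and 1 and then 5, 3 and 3 of 8 genes, and markers of choroid plexus and ependyma at 0, 3 and 1 and then 2, 2 and 2 of 6 genes.

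The 3 genes whose log2 covered length over the 6 libraries was nearest to that of Trf were Zbtb7b (Euclidean distance 0.393), Mtch1 (0.400) and Kif3c (0.484). Zbtb7b was covered for 0, 1623 and 376 bp in the neonatal and 10259, 10482 and 13240 bp in the adult libraries. The distance was taken over log2(bp + 100) in all 6 libraries.

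Other genes of iron uptake, reduction, export, haem breakdown, iron-sulphur clusters and hepcidin signalling were taken as a list of 37, of which 30 were named in the peak lists. Promoter peaks were found at 12, 23 and 10 of them in neonatal 1, 2 and 3 and at 28, 27 and 25 in adult 1, 2 and 3. With the 7353 strongest peaks the numbers were 10, 9 and 10 and then 12, 7 and 9, so the difference between the ages was not seen at equal list length. All 3 adult libraries and no neonatal library marked the promoters of 3 genes: Cp, the ferroxidase ceruloplasmin, Nfs1, the cysteine desulphurase of iron-sulphur cluster assembly, and Tmprss6, a protease of hepcidin control. That is 3 of the 29 with a promoter peak in any library, against 12.1% of all genes. The reverse was found for 0 genes. Covered length was higher in each adult than in each neonatal list for 20 of the 30 named genes, against 60% of all genes, and 0 showed the opposite.

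Of the 37 genes, 21 had a promoter site in the authors' deposited table, 21 of them higher in adult cells, with a median of 1.85 against 1.77 over the best promoter sites of all genes. These are 21 of the 29 with a promoter peak in any library, set against 64.5% of all such genes with a site higher in adult cells in the authors' deposited table. Among the highest in the authors' deposited table were Fbxl5, the iron sensor that targets IRP2 for degradation (log2 fold change 5.19, adjusted p = 2.22e-09), and Hfe, a partner of the transferrin receptor (4.58, adjusted p = 0.000195). Among the lowest in the authors' deposited table were Tfr2, the second transferrin receptor (1.16, adjusted p = 0.0163), and Pcbp2, an iron chaperone (1.35, adjusted p = 0.0149). Peaks assigned to Fbxl5 covered 310, 470 and 289 bp in neonatal 1, 2 and 3 and 4664, 4759 and 7917 bp in adult 1, 2 and 3, so Fbxl5 was marked in every library.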

How the data were processed

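H4K8ac ChIP-seq peak lists of 3 neonatal and 3 adult OPC libraries were analysed. Per the submitters' processing notes the tools were Trim Galore, Bowtie2 2.4.5, SAMtools, deepTools, MACS2, DiffBind and ChIPseeker, with GRCm38; their settings are not given in the sources used here. Per the file headers, each deposited list gives the position of a peak, its linear fold over background, −log10 of p and of q, a score and the assigned gene. The score deposited by the authors was 10 times −log10 q, rounded down. The authors' deposited table of differential sites holds a log2 fold change and raw and adjusted p-values for each site, without values per library, and lists sites with an adjusted p under 0.05. How its reads were normalised is not given in the sources used here. A site was given the gene and class of the deposited peak sharing most bases with it.

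Positions were converted to a count from 1. Peaks were grouped by the deposited gene name. Covered length, as log2(bp + 100), and numbers of peaks were compared for all 23433 genes with exact two-sided permutation tests over 20 arrangements of the libraries (smallest p 0.1), with Benjamini-Hochberg adjustment over all genes. The test was tested on simulated data with the same noise in every library. That simulation had no difference in list length between the ages, so it does not cover that feature of these data. Peak presence and the authors' sites were counted with no test. Python 3.11.15, numpy 2.4.6, pandas 2.3.3 and scipy 1.17.1 were used. Promoter sequences and gene positions came from RefSeq tables of GRCm38.p6, matched by symbol for all 8 genes in the gene table.

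Depth is unknown, since the lists hold no read counts, and the number of libraries limits the precision. The members, lists and alternatives were chosen with earlier results of these data known. All 8 genes are named; of the 37 other genes, those marked throughout one age and nowhere in the other, and the 3 highest and 3 lowest by best promoter site; and the 3 genes nearest to Trf by covered length. Some genes that this rule names are not reported here. Alternatives were assignment by position, equal list lengths, a q-value limit of 0.005, 1000 bp added before the logarithm, scaling by total covered length, merging of peaks within 1000 bp, a 1000 bp promoter window, a stricter adjusted p, a replicate block and leaving out each library. Input libraries were not used here.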

Additional observations from a re-analysis of the deposited data

How the results depend on the processing

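The number of iron handling genes whose covered length was higher in every adult than in every neonatal library, 6 of 8, was 6 with peaks assigned by position and with 1000 bp added, 5 at a q-value limit of 0.005, 3 after scaling by total covered length and 2 at equal list length. With each library left out it ranged from 6 to 8, being 8 without neonatal 2. Without neonatal 2 the median difference in log2 covered length over all genes rose too, from 1.94 to 2.44. Shares of all genes were not counted with a library left out, by position or at the stricter q-value limit. By number of peaks the count of 3 became 2 with peaks within 1000 bp merged and 0 at equal list length. With a library left out it ranged from 3 to 6, being 6 without neonatal 2. The mean number of these genes with a promoter peak was 4 higher in adult libraries, 2.33 higher at equal list length, and 2.5 to 6 with a library left out. The difference for the 37 other genes, 11.7, was -0.333 at equal list length and ranged from 9.17 to 15.7 with a library left out. Sites of the authors' deposited table assigned to the 8 genes numbered 24, 20 at an adjusted p under 0.005 and 13 when assigned by position, which by construction takes only sites within 3000 bp of a gene. Signs turned for Tfrc covered length (-0.42 at equal list length, -0.0073 scaled), for Ireb2 covered length (-0.14 scaled) and for the number of Aco1 peaks (0.333, and -0.17 to 1.33 with a library left out, the lowest without neonatal 1 or neonatal 3). Of 184 values for single genes under alternatives, 172 kept their sign, 5 turned sign as given above, 3 became 0 and 4 left 0; no value could pass the threshold, and the cause of the changes was not tested. Same-numbered libraries did not deviate together (correlations -0.0586, 0.0149 and 0.0812), so the numbers were not taken to pair the libraries; with the replicate block the counts were 6 by covered length and 3 by peaks and the promoter difference 4, and the smallest p was 0.25. The authors' sites could not be recomputed without a library, and a peak that is missing from a shorter list may lie under its limit.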
